A study of Mus musculus with 10 samples.

Results

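The keratin-associated protein genes were taken as every gene on the array whose symbol begins with Krtap followed by a digit. There were 50 of them among 19505 named genes, each read by 1 probe set, and they fall into 24 subfamilies by the number before the hyphen, 14 of which had 1 member here. Whole skin of C57BL/6J mice, aged 9 weeks when the experiment began, was profiled on 10 arrays. In 8 samples a silicone expander lay beneath the back skin and the skin above it was taken. The device was enlarged stepwise with PBS, a salt buffer, in the 4 expanded samples and never injected in the 4 non-expanded ones. Each arm had 1 array at 0, 7, 14 and 21 days after the expander was fully injected. The remaining 2 samples came from mice without surgery, 1 with hair follicles at rest (telogen) and 1 with growing follicles (anagen). The hair stage is labelled for these 2 samples only, and the labels do not say whether an array holds 1 animal or a pool. No state of any group was replicated at the same day or stage, so a difference between single arrays carries no error and no test.

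Keratin-associated proteins are small proteins that fill the space between the keratin filaments of the hair shaft and cross-link them through their cysteines. They are made late in the life of a hair cell, above the dividing matrix of an anagen follicle, after the hair keratins have appeared, and the genes sit in clusters of small genes. By their composition they are grouped as high sulfur and ultra-high sulfur proteins, rich in cysteine, and as high glycine-tyrosine proteins. KAP5, KAP10 and KAP12 proteins are known chiefly from the cuticle, the outer cell layer of the shaft, while many of the others are known from the cortex within it. A telogen follicle holds a finished club hair and makes no new shaft, so whole skin in telogen is poor in these transcripts. In whole skin, fewer shaft cells and less RNA per shaft cell cannot be told apart.

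All 50 genes were found in the RefSeq annotation of GRCm38.p6, in 4 clusters. Chromosome 16 held 23 (chr16:88610709-89571183), chromosome 11 held 20 (chr11:99550132-99993994), chromosome 7 held the 5 genes of subfamily 5 (chr7:142174532-142304503), and chromosome 10 held Krtap10-4 and Krtap12-1 (chr10:77720586-77827070). Krtap3-2 and Krtap3-3, whose starts lie 5691 bp apart on chromosome 11, had identical values on all 10 arrays and are 1 measurement, so each count below that includes them holds 49 independent readings at most. Classes were assigned by subfamily number, without protein sequences or a computed composition. In this way 14 genes were counted as high sulfur, 18 as ultra-high sulfur and 14 as high glycine-tyrosine. The 4 genes numbered 16 and 31 were left unassigned. Krtap10-4 and Krtap12-1 were counted as ultra-high sulfur, a placement that was not checked and may differ from published schemes.

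The promoter windows were searched because the members moved together. RefSeq windows running from 250 bases before to 50 bases after the gene start were at hand for 46 of the 50 genes. On the gene strand, 37 of 46 (80.4%) held TATAAA, against 8.32% of all 32851 promoter windows of that length. In 26 of 46 (56.5%) a TATAAA began 40 to 20 bases before the start, against 1.99% of all windows. With TATATAA, which overlaps TATAAA wherever TATATAAA occurs, 45 of 46 (97.8%) held at least 1 of the 2 forms against 9.49%, the exception being Krtap5-3. Of the other 8 motifs searched on both strands, the forms bound by LEF1 and TCF factors, CTTTGAA and CTTTGTT, were in 19.6% and 13% of the members' windows against 5.14% and 5.85% of all. CCAAT was in 37.0% against 37.4%, CATTAG in 10.9% against 7.36%, GGGTGTG in 8.70% against 7.95%, TTTACGA in 2.17% against 0.597% and CTCGTAAA in 2.17% against 0.131%. TTTATTG was in 0 of 46 windows against 4.60%. A match is a run of letters, not a site shown to be used.

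The 250 bases before the start of 6 genes are printed 5′ to 3′ on the gene strand, with every TATAAA and TATATAA in capitals. Krtap22-2 (chr16:89010760-89011009, minus strand) and Krtap6-5 (chr16:89047900-89048149, minus strand) came nearest to their anagen level in expanded skin at day 7 among the genes past the level filter used for the tests. Krtap9-5 (chr11:99948174-99948423, plus strand) and Krtap5-2 (chr7:142176006-142176255, minus strand) stayed farthest below it. Krtap19-1 (chr16:88869411-88869660, minus strand) was the member with the widest gap between telogen and the non-expanded day 14 array, and Krtap13 (chr16:88751629-88751878, minus strand) was flat on all 10 arrays. These 6 were chosen after their values were seen.
Krtap22-2: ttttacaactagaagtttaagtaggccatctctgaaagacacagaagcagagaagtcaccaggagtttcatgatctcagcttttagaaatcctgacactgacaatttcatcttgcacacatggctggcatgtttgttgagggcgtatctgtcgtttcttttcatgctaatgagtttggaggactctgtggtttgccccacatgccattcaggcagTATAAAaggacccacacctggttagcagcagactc
Krtap6-5: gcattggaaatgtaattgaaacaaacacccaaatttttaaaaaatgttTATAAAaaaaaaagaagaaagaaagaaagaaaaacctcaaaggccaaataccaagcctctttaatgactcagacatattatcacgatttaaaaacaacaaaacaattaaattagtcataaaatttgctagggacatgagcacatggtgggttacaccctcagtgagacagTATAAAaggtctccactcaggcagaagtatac
Krtap9-5: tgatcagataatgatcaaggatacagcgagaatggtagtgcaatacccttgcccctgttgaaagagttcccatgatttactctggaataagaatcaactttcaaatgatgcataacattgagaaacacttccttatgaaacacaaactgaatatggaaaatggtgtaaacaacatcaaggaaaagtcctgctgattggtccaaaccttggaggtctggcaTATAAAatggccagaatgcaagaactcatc
Krtap5-2: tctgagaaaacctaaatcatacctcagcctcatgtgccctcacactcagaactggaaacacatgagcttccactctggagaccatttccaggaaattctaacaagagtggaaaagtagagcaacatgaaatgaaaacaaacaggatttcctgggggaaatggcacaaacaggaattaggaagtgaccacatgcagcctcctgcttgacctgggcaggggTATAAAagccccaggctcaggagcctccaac
Krtap19-1: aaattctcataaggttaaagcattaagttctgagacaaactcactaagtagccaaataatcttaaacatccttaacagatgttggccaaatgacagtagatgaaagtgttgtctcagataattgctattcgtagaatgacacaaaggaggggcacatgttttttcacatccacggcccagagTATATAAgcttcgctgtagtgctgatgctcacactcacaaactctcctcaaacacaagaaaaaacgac
Krtap13: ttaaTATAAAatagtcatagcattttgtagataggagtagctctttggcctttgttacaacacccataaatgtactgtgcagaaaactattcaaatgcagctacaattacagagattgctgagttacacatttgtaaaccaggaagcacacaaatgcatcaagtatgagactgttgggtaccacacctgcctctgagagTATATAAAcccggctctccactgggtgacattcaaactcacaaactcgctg
The TATAAA nearest the start began 35 bases before it in Krtap22-2, 32 in Krtap6-5, 30 in Krtap9-5 and 31 in Krtap5-2. These genes, picked after their values were seen, carried the same letters at nearly the same distance. In other members the TATAAA began farther off, 69 bases before the start in Krtap6-1 and 49 in Krtap6-2. A relation between its position and the response at day 7 was not tested. Krtap19-1 held TATATAA 68 bases before its start and no TATAAA, as did others of its subfamily, of which 2 of 6 held TATAAA. Krtap13, which was not above background on any array, held TATAAA 49 bases before its start.

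The values are on a log2 scale and run from 1.88 to 19.88 over all probe sets, with array medians of 6.27 to 6.45. The normalization behind them is not given in the sources used here. A raw 16-bit scanner reading cannot exceed 16 on this scale, and 586 probe sets did so on at least 1 array, 30 of the 50 members among them in anagen and 6 in expanded skin at day 7. Folds are therefore given as differences on the deposited log2 scale and, where they are written as folds, on that same scale. The 23 background probe sets of the array had a median of 5.46. A difference of 1 on the log2 scale is a 2-fold difference and was used as the mark for comparing single arrays.

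Most of the 50 genes sat at background in most expander samples and far above it in 2 arrays. Their median was 4.90 in non-expanded skin at day 0, 4.84 at day 7, 6.98 at day 14 and 4.86 at day 21. In expanded skin it was 5.10 at day 0, 11.44 at day 7, 5.41 at day 14 and 5.18 at day 21. It was 6.60 in telogen and 16.31 in anagen, while the median of all named genes stayed between 6.53 and 6.66 on the 10 arrays. The number of members above the background median was 20, 17, 37 and 18 in the non-expanded arrays by day, 19, 47, 24 and 21 in the expanded ones, 35 in telogen and 49 in anagen. Of all named genes, 60.9% to 63.2% were above it on every array. The anagen array and the expanded day 7 array thus held nearly the whole family above background, the non-expanded day 14 array and telogen held a part of it, and the other 6 arrays held 17 to 24 genes each.

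**Figure D1:**
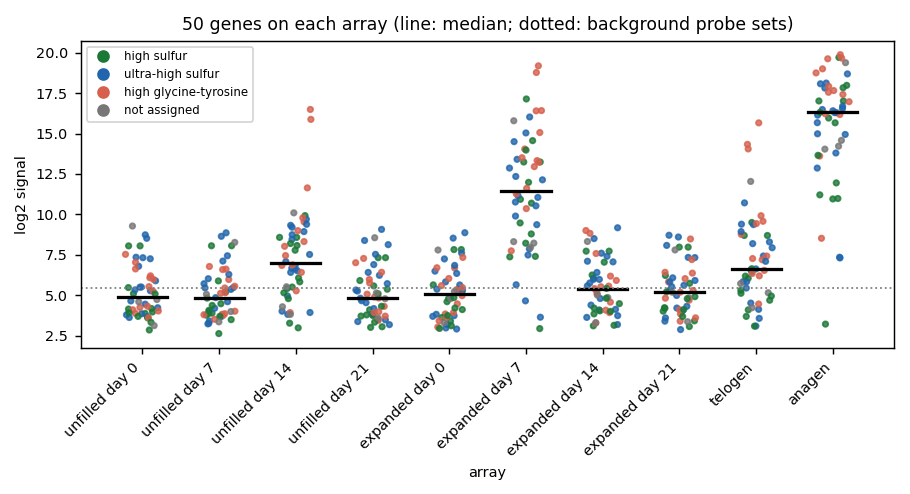
Log2 signal of the 50 keratin-associated protein genes on each of the 10 arrays, 1 point a gene, coloured by class, with the median as a bar and the background median of 5.46 dotted. The expanded day 7 and anagen arrays stand above the others, with medians of 11.44 and 16.31.

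Anagen was the highest of the 10 arrays for 49 of the 50 genes, as it was for 20.5% of all named genes. Expanded skin at day 7 was second for 48 (9.98% of all genes), each of them with anagen first (4.05%). The next place went to non-expanded skin at day 14 for 26 genes (10.4%) and to telogen for 20 (8.66%). In 40 genes the first 4 places were anagen, expanded day 7 and then these arrays in either order (0.441%). The exceptions to the leading pair were Krtap12-1, with anagen first but not expanded day 7 second, and Krtap13. Krtap12-1, a cuticle protein gene, read 7.35 in anagen and 3.09 to 3.81 elsewhere, with 3.64 in expanded skin at day 7. Krtap13 lay between 2.85 and 3.49 on all arrays, so its row carries no usable signal. Near the bottom of the order the arrays lie close together and their places there have no meaning.

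**Figure D2:**
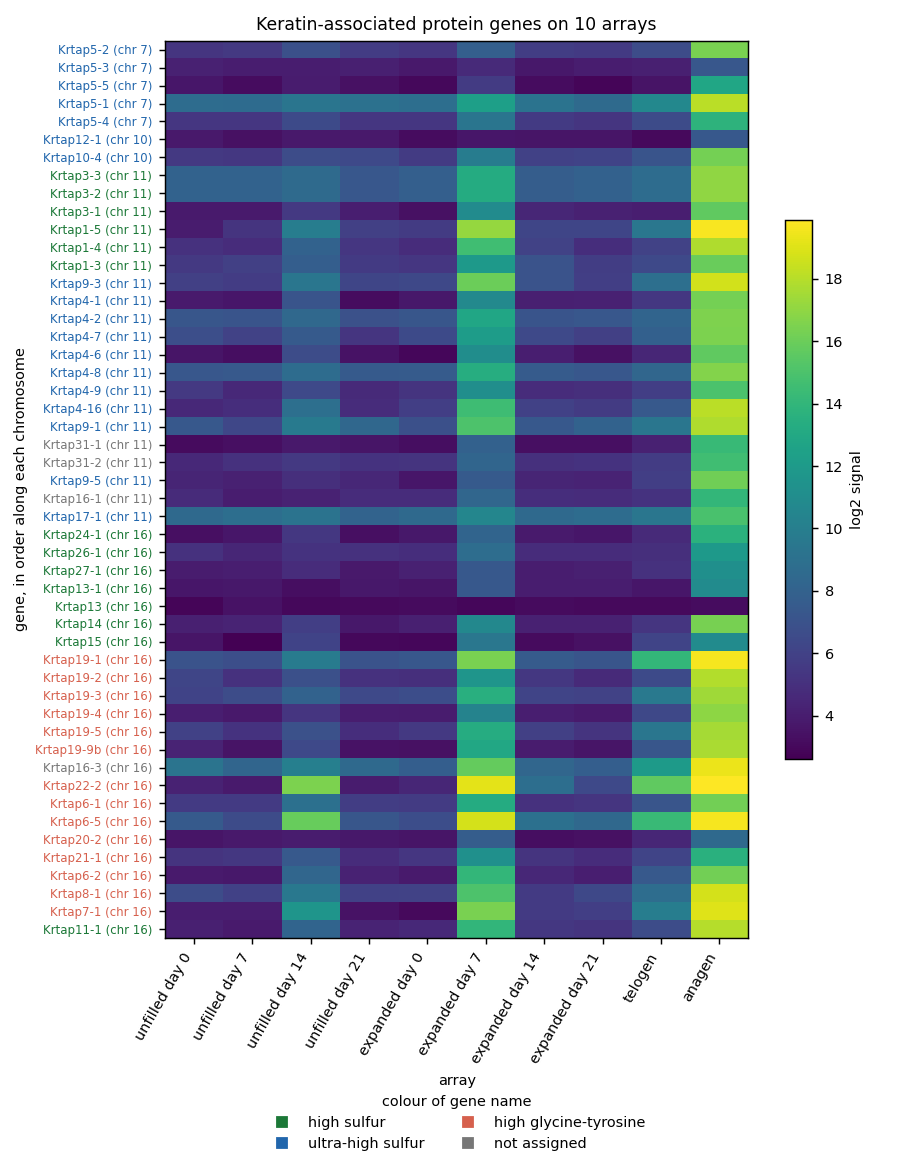
Log2 signal of the 50 genes (rows, in order along chromosomes 7, 10, 11 and 16, names coloured by class) on the 10 arrays (columns). Bright cells run down the anagen and expanded day 7 columns, with fainter columns at non-expanded day 14 and telogen.

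Between the hair stages of mice without surgery, 49 of 50 genes were at least 2-fold higher in anagen than in telogen, where 17.5% of all genes were, and 0 were lower, against 17.8%. The differences had a median of 8.81 and reached 11.79 in Krtap1-4. The cortex gene Krtap11-1 read 6.64 in telogen and 17.99 in anagen. Krtap19-2, a high glycine-tyrosine member, read 6.53 and 17.92. Of the 100 named genes with the largest anagen minus telogen difference, 39 were members of the family. The gene not 2-fold higher in anagen was Krtap13. The arrays that carry the hair stage labels also differed in other tissue. All 13 skeletal muscle genes were at least 2-fold lower in anagen, with a median of -3.19. So were all 4 macrophage genes on the array, with a median of -1.90, against 17.8% of all genes. Their part in the result was not tested.

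The telogen array was not empty of these transcripts. Krtap22-2 read 15.66 in it, Krtap6-5 14.33, Krtap19-1 14.05 and Krtap16-3 12.04. In 22 of 50 genes telogen stood at least 2-fold above each of the 6 expander arrays other than expanded day 7 and non-expanded day 14, against 1.81% of all genes. Set against telogen, 30 members were at least 2-fold lower in non-expanded skin at day 0 (8.18% of all genes), 32 at day 7 (10.9%) and 34 at day 21 (8.14%). In expanded skin the counts were 30 at day 0 (9.99%), 29 at day 14 (11.3%) and 33 at day 21 (8.02%). On the deposited values, skin over an expander at these days thus lay at least 2-fold below resting skin for 29 to 34 of the 50 genes, in both arms. Telogen was above the background median for 35 of 50 genes (63.2% of all genes) and these 6 expander arrays for 17 to 24 (61.2% to 62.0%). The counts against telogen therefore depend in part on the floor. They were not repeated with readings under the background median set to it.

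At day 7 the arms lay apart. In 47 of 50 genes expanded skin was at least 2-fold higher than non-expanded skin, where 6.43% of all genes were, and 0 were lower, against 7.03%. The median difference was 6.22. In 33 genes the non-expanded reading was not above the background median (38.3% of all genes), so the size of the difference there depends on the floor. With readings under the background median set to it, a choice made after seeing the data, 46 were at least 2-fold higher. The same 47 were at least 2-fold above telogen (13.8% of all genes) and at least 2-fold above each of the other 7 expander arrays (1.06%). The 3 that were not were Krtap5-3, Krtap12-1 and Krtap13, all of them under the level filter used for the tests. Of the 100 named genes with the largest day 7 difference, 32 were members. Beside this, 11 of 13 skeletal muscle genes were at least 2-fold lower in expanded skin at day 7, with a median of -2.84, and their part in the result was not tested.

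The 3 high glycine-tyrosine genes at the head of that difference lie in the last stretch of the chromosome 16 cluster. Krtap22-2 read 4.24, 3.86, 16.49 and 3.92 in non-expanded skin at days 0, 7, 14 and 21, and 4.46, 19.19, 8.83 and 6.42 in expanded skin. It read 15.66 in telogen and 19.88 in anagen. Expanded skin at day 7 lay 15.34 above the non-expanded reading of that day, which was itself under background, and 13.73 above the background median. It lay 0.69 below the anagen reading, which is the highest value in the deposited table. Krtap6-5 read 7.53, 6.59, 15.88 and 7.28 in non-expanded skin and 6.69, 18.78, 9.00 and 8.48 in expanded skin, against 14.33 in telogen and 19.63 in anagen. Krtap7-1 read 4.02, 4.01, 11.64 and 3.44 without expansion and 3.03, 16.41, 5.53 and 5.82 with it, against 9.92 and 19.01. In all 3 the highest array of each arm stood far above the rest of it, at day 7 with expansion and at day 14 without, so the arms overlap.

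**Figure D3:**
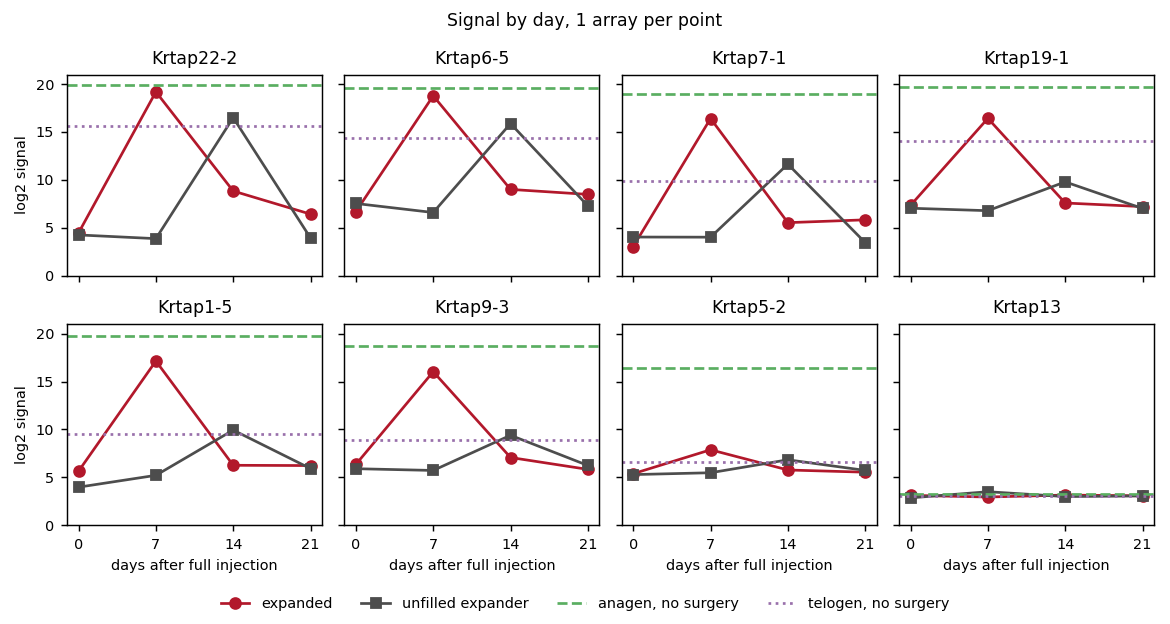
Log2 signal of 8 of the genes by day after full injection in expanded skin (red circles) and over an unfilled expander (grey squares), with the anagen (dashed) and telogen (dotted) arrays as lines; each point is 1 array. The expanded arm is highest at day 7 and the non-expanded arm at day 14 in 7 of the panels, and Krtap13 is flat.

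Krtap1-5, Krtap9-3 and Krtap11-1 are cysteine-rich members that were high in expanded skin at day 7. Krtap1-5, of the high sulfur class, read 3.96, 5.20, 9.92 and 5.91 in non-expanded skin and 5.64, 17.14, 6.25 and 6.22 in expanded skin, against 9.50 in telogen and 19.71 in anagen. Krtap9-3, an ultra-high sulfur member, read 5.89, 5.71, 9.39 and 6.23 without expansion and 6.35, 16.03, 7.06 and 5.82 with it, against 8.93 and 18.69. In both genes the day 7 array of expanded skin was within 2.57 and 2.67 of anagen. Krtap11-1 read 4.17, 3.87, 8.20 and 4.31 in non-expanded skin and 4.60, 13.98, 5.42 and 5.20 in expanded skin, 4.01 below anagen at day 7.

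Other genes lay low at day 7 although they were high in anagen skin. Krtap5-2, of the cuticle subfamily, read 5.28, 5.47, 6.82 and 5.72 in non-expanded skin and 5.37, 7.87, 5.76 and 5.53 in expanded skin, against 6.63 in telogen and 16.41 in anagen. Krtap9-5 read 4.44, 4.19, 4.96 and 4.54 without expansion and 3.69, 7.49, 4.39 and 4.31 with it, against 5.84 and 16.14. Both were 2-fold or more higher at day 7 with expansion, by 2.40 and 3.29 on the log2 scale, yet 8.54 and 8.66 below anagen. Krtap9-5 shares its subfamily number with Krtap9-3 and Krtap9-1, which lay 2.67 and 2.78 below anagen.

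At day 14 the order of the arms was turned. In 30 of 50 genes expanded skin was at least 2-fold lower than non-expanded skin, where 7.41% of all genes were, and 0 were higher, against 8.41%. With readings under the background median set to it, 23 were lower. At the same day all 5 adipocyte genes were at least 2-fold lower in expanded skin, with a median of -1.99, as were 11 of 13 skeletal muscle genes, with a median of -3.51. Their part in the result was not tested. Non-expanded day 14 was the highest of its arm's 4 arrays for 46 genes, as it was for 25.3% of all. Expanded day 7 was the highest of all 8 expander arrays for 48 (10.6%). For 26 members both of these arrays stood at least 2-fold above each of the other 6, against 0.251% of all genes. The day 14 difference was largest in the same high glycine-tyrosine genes, by 7.66 in Krtap22-2, 6.88 in Krtap6-5 and 6.11 in Krtap7-1, followed by 3.97 in Krtap8-1. Across the 50 genes the size of the day 14 difference followed that of the day 7 difference (Pearson r = 0.845, Spearman rho = 0.874, given as a description, since the genes share the same 4 arrays).

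Days 0 and 21 showed little of this. At day 0, 2 members were at least 2-fold higher in expanded skin (6.94% of all genes), Krtap1-5 by 1.67 and Krtap4-16 by 1.18, and 2 were lower (5.6%), Krtap16-3 and Krtap19-2. At day 21, 4 were higher (4.9%) and 0 lower (4.89%). The 4 were Krtap22-2 by 2.49, Krtap7-1 by 2.38, Krtap6-5 by 1.20 and Krtap4-1 by 1.03. The shares at both days are near those of all genes. With readings under the background median set to it, Krtap6-5 alone was higher at day 21, and at day 0 there were 0 higher and 1 lower.

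Non-expanded skin at day 14 and telogen were close for the family as a whole, with a median difference of 0.23, but the genes differed in which was higher. Against telogen, 11 genes were at least 2-fold higher in non-expanded skin at day 14 (8.06% of all genes) and 6 were lower (5.5%). The higher ones were Krtap4-6, Krtap1-4, Krtap6-1, Krtap7-1, Krtap4-1, Krtap11-1, Krtap6-5, Krtap4-16, Krtap3-1, Krtap1-3 and Krtap21-1. Of the 6 lower ones, 4 were of subfamily 19, with Krtap16-3 and Krtap5-1. Krtap19-1 was the extreme: it read 9.79 in non-expanded skin at day 14 and 14.05 in telogen, and 7.34, 16.42, 7.58 and 7.20 in expanded skin. Below the leading pair, telogen was therefore the next array for most of subfamily 19 and the day 14 array for most of subfamilies 1 and 4.

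The remaining named genes filled in this range. Among high glycine-tyrosine genes, Krtap8-1, known from the cortex, read 5.97 in non-expanded and 15.07 in expanded skin at day 7, with 8.76 in telogen and 18.76 in anagen. Krtap6-1 read 5.55 and 13.23 at day 7, with 7.19 and 16.22, and Krtap21-1 read 5.45 and 11.27, with 6.19 and 13.61. Krtap19-9b read 3.51 and 12.96, with 7.27 and 17.66, and Krtap19-3 read 6.61 and 13.51, with 9.57 and 17.42. Krtap20-2 stood near its anagen level at day 7, at 7.74 against 8.52, but from a gene that the level filter left out. In each of these the expanded day 7 array lay closer to anagen than to the non-expanded array of the same day.

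High sulfur genes had similar courses. At day 7, non-expanded and then expanded skin, Krtap1-3 read 5.88 and 11.98 (anagen 15.96), Krtap3-1 3.89 and 10.93 (anagen 15.67) and the shared reading of Krtap3-2 and Krtap3-3 was 8.06 and 13.24 (anagen 17.02). Krtap14 read 4.37 and 10.70 (anagen 16.31), and Krtap15 read 2.62 and 9.47 (anagen 10.96). Krtap24-1 read 3.69 and 8.22 (anagen 13.65), Krtap26-1 4.47 and 8.79 (anagen 11.95) and Krtap27-1 4.06 and 7.40 (anagen 11.21). Krtap13-1, also under the level filter, read 3.76 and 7.37 (anagen 10.98), unlike the flat Krtap13 beside it in name. All of these but Krtap13 were higher with expansion at day 7 by more than 2-fold, and Krtap15 came within 1.48 of anagen.

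Of the ultra-high sulfur genes, Krtap4-16 read 4.85 in non-expanded and 14.50 in expanded skin at day 7 (anagen 18.13) and Krtap4-8 read 7.44 and 13.41 (anagen 16.69). Krtap9-1 read 6.29 and 15.04 (anagen 17.82). Krtap5-3 read 4.00 and 4.65 (anagen 7.30), 1 of the 3 genes that were not 2-fold apart. Among unassigned genes, Krtap16-3 on chromosome 16 read 8.27 and 15.79 (anagen 19.39) and Krtap16-1 on chromosome 11 read 3.99 and 8.31 (anagen 14.04), and the number 16 does not mark neighbours.

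The medians of the classes, as assigned here, differed in how near day 7 came to anagen. The ultra-high sulfur values include Krtap10-4 and Krtap12-1, whose class was not checked, with gaps of 6.40 and 3.71. The gap from expanded day 7 up to anagen had a median of 3.12 in the 14 high glycine-tyrosine genes (0.69 to 6.62), 3.78 in the 14 high sulfur genes (0.28 to 5.62), 4.38 in the 18 ultra-high sulfur genes (2.66 to 8.66) and 5.99 in the 4 unassigned genes (3.59 to 6.36). Over all 50 genes, 46 were at least 2-fold higher in anagen than in expanded skin at day 7, against 12.5% of all genes. The 4 within 2-fold were Krtap22-2, Krtap20-2 and Krtap6-5, all high glycine-tyrosine genes of chromosome 16, and the flat Krtap13. Placed on a scale where telogen is 0% and anagen 100% of the log2 distance, expanded day 7 lay at a median of 64.9% for high glycine-tyrosine, 54.9% for high sulfur, 43.9% for ultra-high sulfur and 36.5% for unassigned genes. The median over the 49 members with a distance of at least 1 was 54.6%, and that of the 3360 other genes at least 2-fold higher in anagen was 45.3%. Non-expanded day 14 lay at 2.90% for the members and 21.8% for those other genes. The telogen and anagen readings that picked those other genes also set the scale, and their distances were not matched to the members'. The percentages of the members and of the other genes are therefore not on like terms. The ranges of the classes overlap throughout. Some gaps involve the ends of the scale. Krtap22-2 and Krtap6-5 read 19.88 and 19.63 in anagen, near the highest deposited value. Krtap19-1, at 19.67, had a gap of 3.25, and Krtap20-2, at 8.52, had 0.78. At expanded day 7 Krtap5-5, Krtap5-3 and Krtap12-1 read 5.64, 4.65 and 3.64, near or under the background median of 5.46. The part of these limits in the class medians was not tested.

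Subfamilies of 1 class also lay apart. Subfamily 19 (6 genes, high glycine-tyrosine) had a median gap of 4.47, while Krtap6-1, Krtap6-2 and Krtap6-5 of the same class had 3.00, 2.13 and 0.85. Among ultra-high sulfur genes, the 7 of subfamily 4 had a median of 3.83 and the 5 of subfamily 5 had 5.73. The cuticle subfamilies stood low at day 7, with subfamily 5 at a median of 22.2% of the distance from telogen to anagen and Krtap10-4 at 30.4%. Krtap12-1, and Krtap5-3 within subfamily 5, read under background both in telogen and at day 7, so their places on that scale carry no information. Krtap10-4 read 9.90 in expanded skin at day 7, against 7.09 in telogen and 16.30 in anagen. Krtap17-1, an ultra-high sulfur gene that read 8.13 to 9.21 in non-expanded skin, was at 10.53 in expanded skin at day 7 and 14.95 in anagen, at 20.8% of the distance.

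**Figure D4:**
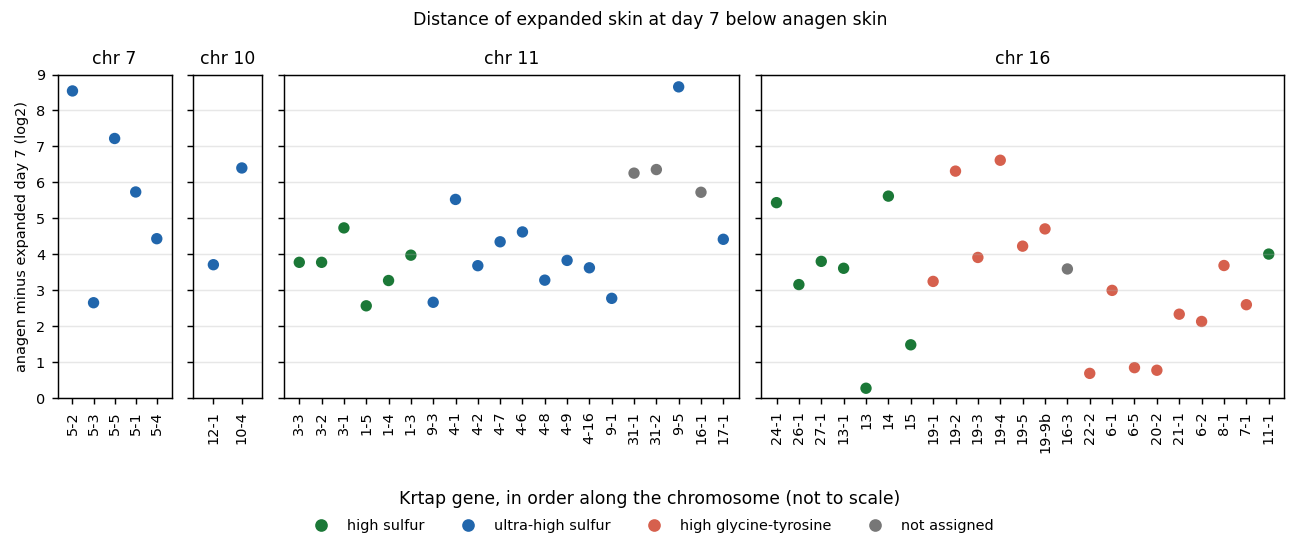
Anagen minus expanded day 7 (log2) for each of the 50 genes in order along chromosomes 7, 10, 11 and 16 (spacing not to scale), coloured by class. The lowest points are Krtap13, Krtap22-2, Krtap20-2 and Krtap6-5 on chromosome 16, and the highest are Krtap9-5 at 8.66 and Krtap5-2 at 8.54.

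Position along a cluster went with the size of the day 7 response on chromosomes 11 and 16, in opposite directions. The Spearman rho of gene start with the day 7 difference was -0.479 over 20 genes on chromosome 11. On chromosome 16 it was 0.636 over 22 genes, the flat Krtap13 left out. Both are given as a description. On chromosome 11, the 15 genes from Krtap3-3 to Krtap9-1 had day 7 differences between the arms of 5.18 to 11.94 (median 7.04). Their gaps to anagen were 2.57 to 5.53. The last 5 genes, Krtap31-1, Krtap31-2, Krtap9-5, Krtap16-1 and Krtap17-1, had differences of 1.67 to 4.61 (median 3.30) and gaps of 4.42 to 8.66. The day 7 differences of the 2 stretches do not overlap, although their anagen minus telogen medians were 9.50 and 8.89. On chromosome 16, the last 9 genes, from Krtap22-2 on, had a median day 7 difference of 10.10 and a median gap of 2.34, against 6.53 and 3.86 for the 14 before them, and the ranges overlap. Both boundaries were drawn after the values were seen and carry no test. Of the 46 pairs of adjacent genes over the 4 clusters, 22 share a subfamily, 11 of 19 on chromosome 11 and 7 of 22 on chromosome 16, and position was not separated from subfamily. Subfamily 9 is split by the boundary on chromosome 11, with Krtap9-1 and Krtap9-3 below it and Krtap9-5 above. Krtap31-1 and Krtap31-2 are the nearest pair by promoter, with 82.3% of bases the same. Their readings were 7.96 and 8.22 in expanded skin at day 7 and 14.22 and 14.58 in anagen. They lay farther apart in non-expanded skin at day 7, at 3.35 and 5.06, and in telogen, at 4.22 and 5.72. A relation between promoter and level was not tested.

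The design's tests were fitted with limma over the 13653 named genes past a level filter, 44 of the members among them. Averaged over the 4 days with the day as a block, 0 of 44 members passed an adjusted p of 0.05 for expanded against non-expanded skin, as did 0 of all genes (0.0%). At an unadjusted p under 0.05 there were 0 of 44 members and 8.8% of all genes. All 44 estimates were above 0, as were 52.5% of all, with a median of 1.24 against 0.02. The level filter used the mean over all 10 arrays, so high anagen and expanded day 7 readings helped members to pass it. Among the members it left out, Krtap5-3, Krtap12-1 and Krtap13 had lower means in expanded than in non-expanded skin. Krtap5-5, Krtap13-1 and Krtap20-2 had higher ones. Without the filter the median of the 50 members was 1.20, against -0.025 for all genes. In Krtap22-2 the arms had means of 9.72 ± 6.56 (SD, n = 4) and 7.13 ± 6.24 (SD, n = 4), an estimate of 2.60 with a standard error of 3.24 and an adjusted p of 0.835 by limma. The lowest adjusted p of a member was 0.669, in Krtap16-1 (estimate 1.25, standard error 0.727). The day 7 arrays decide the sign: without them the median was -0.49 and 2 of 44 estimates were above 0, and without the expanded day 7 array alone it was -0.28. Only 1 of 50 genes had all 4 expanded arrays above all 4 non-expanded ones, against 2.31% of all. An exact permutation test over 4 pairs cannot go below 0.125.

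The difference of the day trends had 0 of 44 members with an adjusted p under 0.05 by limma, where 0 of all genes passed (0.0%). At an unadjusted p under 0.05 there were 0 of 44 members and 1.22% of all genes. For the non-expanded arm against the mice without surgery, the 44 members had a median estimate of -5.79, against 0.01 for all genes. By limma, 0 of 44 passed the adjusted threshold (0.0% of all genes), 34 had an unadjusted p under 0.05 in the lower direction (6.28% of all), and the lowest adjusted p was 0.127, in Krtap19-1 (estimate -9.21, standard error 2.48). The unoperated pair is telogen and anagen, which stand far apart for these genes. Against anagen alone, without the telogen array, 40 of 44 fell past the threshold by limma (19.4% of all genes) with a median of -10.46, and against telogen alone, without anagen, 0 did, with a median of -0.99. For the expanded arm against the same pair, 0 of 44 passed by limma (0.476% of all genes), 13 had an unadjusted p under 0.05 in the lower direction (5.69%), and the median was -4.74. Without telogen 29 did (13.6%), with a median of -9.43, and without anagen 0 did, with a median of -0.086. With 1 unoperated array left, limma takes its spread from the other groups, so these calls assume that the lone array varies as they do. The count in both comparisons turns on which unoperated array is used.

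The family moved with the other genes of the hair shaft, which were taken from lists chosen with these data known. All 12 hair shaft keratins on the array, whose filaments the family embeds, were at least 2-fold higher in anagen than in telogen (17.5% of all genes), and 11 of 12 at day 7 with expansion (6.43%). Their median day 7 difference was 4.72 and their gap to anagen 4.86. The 9 inner root sheath genes, which build the layer that moulds the shaft, had a day 7 median of 7.39 and a gap of 3.23, and 8 of 9 were at least 2-fold higher at day 7 (6.43% of all genes). Trichohyalin (Tchh), a protein of that layer, read 5.43, 4.97, 13.48 and 6.06 in non-expanded skin and 6.40, 17.16, 8.79 and 10.58 in expanded skin, against 11.45 in telogen and 18.98 in anagen. At day 21, 6 of these 9 genes were at least 2-fold higher in expanded skin, where 4 of the 50 members and 4.9% of all genes were. For expansion over the 4 days, 0 of 11 shaft keratins and 0 of 8 inner root sheath genes tested passed the adjusted threshold by limma, and 0 had an unadjusted p under 0.05.

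The regulators of the shaft differed less at day 7 than its products did, by their medians. Hoxc13, Lef1, Msx1 and Foxq1 read under the background median of 5.46 at day 7 in both arms. The median difference of the regulators thus depends in part on the floor. Of 10 hair matrix transcription factors, 9 were at least 2-fold higher in anagen than in telogen (17.5% of all genes), with a median of 4.26, and 7 at day 7 with expansion (6.43%), with a median of 1.26. Dlx3, a homeobox factor of the hair matrix, read 8.56 in expanded skin at day 7 and 13.93 in anagen. Foxn1, needed for shaft differentiation, read 8.61 and 13.69, and Msx2, another matrix homeobox factor, 6.31 and 11.67. Hoxc13, a regulator of hair keratin genes named here after its values were seen, read 8.17 in anagen. It read 4.05 in expanded skin at day 7 and 3.22 to 3.67 on the other arrays, all under background. The melanocyte genes, which load pigment into a growing shaft, had a median of 5.23 at expanded day 7 and 10.45 in anagen, and of at most 6.07 on the other expander arrays.

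**Figure D5:**
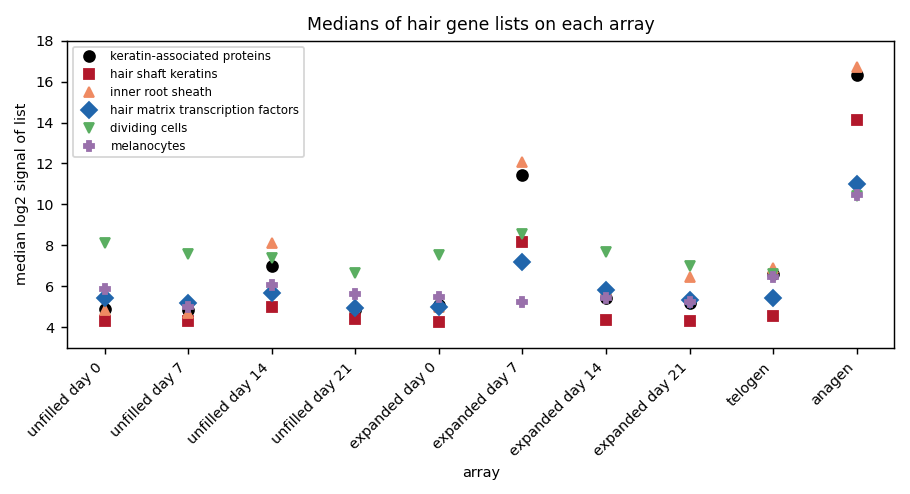
Median log2 signal on each array of the keratin-associated protein genes and of 5 lists of other genes. The family, the hair shaft keratins and the inner root sheath genes are raised in expanded skin at day 7, where the melanocyte genes stand at 5.23, and all are highest in anagen.

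Markers of other tissue also differed between these arrays. The 13 skeletal muscle genes had medians of 12.45 in expanded skin at days 7 and 14 and 12.19 in anagen, and of 14.88 to 17.18 on the other 7 arrays. The family's own median in expanded skin was 11.44 at day 7 and 5.41 at day 14, and it was 16.31 in anagen. The 5 dermal fibroblast genes had a median day 7 difference of -1.10 and the 4 basal epidermis genes of 0.70. The part of tissue composition in the family's levels was not tested.

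Over the 10 arrays, 46 of 50 members had a Pearson r of at least 0.9 with the members' mean (median 0.985), and so had 153 of the 19455 other genes. This is a description of 10 arrays in which anagen and expanded day 7 set the course. Each member also enters the members' mean and the other genes do not, so the counts are not on equal terms. The nearest genes outside the family were Gm11567 (r = 0.995), 1110025L11Rik (0.994), the hair keratin gene Krt86 (0.994) and Gm11563 (0.993). Gm11567, Gm11563 and Gm11564 (0.991) lie within the span of the members' cluster on chromosome 11 and 1110025L11Rik within that on chromosome 16. Krt28, Krt26 and Krt72, keratins of the inner root sheath, had 0.992, 0.992 and 0.991, the cortex keratin gene Krt31 0.991 and S100a3, a calcium-binding protein gene of the hair cuticle, 0.991. Gm11567 read 7.62 in non-expanded skin at day 14, 11.41 in expanded skin at day 7, 6.57 in telogen and 16.02 in anagen.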

How the data were processed

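Total RNA of whole skin was extracted with RNeasy Protect Mini kits and biotin-labelled with the WT PLUS kit of Affymetrix, per the labels' protocols. The authors deposited 1 table of log2 values per probe set; the log base was read from its range, the normalization and summary method are not given in the sources used here, and mm10 is named in the submitters' processing notes. Probe sets were named through the platform annotation (19572 of 28846 had a symbol), and the probe set of highest mean stood for each gene. Genes with a mean over all 10 arrays below the 30th percentile (4.86) were left out of the tests. This kept 13653 genes and 44 of 50 members and left out Krtap5-3, Krtap5-5, Krtap12-1, Krtap13, Krtap13-1 and Krtap20-2.

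Limma 3.58.1 in R 4.3.3 was fitted to all genes kept, with Benjamini-Hochberg adjustment: expanded against non-expanded skin with the day as a block, the difference of the day trends, and each arm against the mice without surgery. The days of the labels pair the arrays by time, not by animal, and the correlations of same-day deviations were -0.133, -0.171, -0.104 and 0.358. P-values measure only the spread between these arrays, and 10 arrays limit the precision. Single arrays were compared at 2-fold without a test, beside the share of all 19505 named genes. The expansion fit was tested on simulated data with noise smaller than the residual spread of these arrays. That check does not show recovery at the spread of these data. Motifs were searched in RefSeq windows of GRCm38.p6.

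The members, classes and lists were chosen with earlier results of these data known. Genes named with values were the widest and narrowest member by range in each subfamily of 2 or more, every only member of a subfamily, the 10 genes outside the family closest to the members' mean, and up to 3 genes of widest range per list. Krtap19-1, Krtap9-5 and other genes outside this rule were named after their values were seen. Alternatives were other filters, quantile normalization, median centring, the mean of probe sets, the fit without the block, a 4-fold mark and leaving out each array or day.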

Additional observations from a re-analysis of the deposited data

Results flagged for a closer look

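Within each arm of 4 arrays, the highest or lowest value was compared with the rest by its gap to the nearest of them, as a share of the arm's range; a share above Dixon's 95% critical value for 4 values marks an array that stands apart. Chance alone marks about 1 in 20 such groups, and the genes share the same arrays, so these are not independent cases.

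For the median of the 50 genes the expanded day 7 array stood apart with a share of 0.95 and the non-expanded day 14 array with 0.968. The expanded day 7 array stood apart as the highest of its arm in 42 of all 50 members, against 1.01% of all named genes, and the non-expanded day 14 array as the highest in 14, against 0.825%. Among the genes named by the rule, the expanded day 7 array stood apart, in order of number, in Krtap1-5 (0.947), Krtap3-1 (0.857), Krtap3-2 (0.955), Krtap4-16 (0.958), Krtap4-8 (0.954), Krtap5-2 (0.845), Krtap6-1 (0.937), Krtap8-1 (0.915), Krtap9-1 (0.849) and Krtap9-3 (0.878). It did so too in Krtap10-4 (0.897), Krtap11-1 (0.913), Krtap13-1 (0.89), Krtap14 (0.982), Krtap15 (0.928), Krtap16-1 (0.982), Krtap16-3 (0.934), Krtap17-1 (0.898), Krtap19-3 (0.91) and Krtap19-9b (0.947), and in Krtap20-2 (0.927), Krtap21-1 (0.919), Krtap24-1 (0.964), Krtap26-1 (0.983), Krtap27-1 (0.939), Krtap31-1 (0.985) and Krtap31-2 (0.933).

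The non-expanded day 14 array stood apart as the highest in Krtap3-1 (0.862), Krtap4-16 (0.952), Krtap4-8 (0.853), Krtap6-1 (0.935), Krtap6-5 (0.899), Krtap7-1 (0.929), Krtap9-3 (0.859), Krtap11-1 (0.898) and Krtap22-2 (0.969). In Krtap13-1 (0.847) it stood apart as the lowest, at 3.27, under background. For Krtap22-2, Krtap6-5 and Krtap7-1 the non-expanded arm gave such a share and the expanded arm did not, since their expanded day 14 or day 21 readings lay above day 0 as well. The other arrays to stand apart were also low ones: expanded day 0 and non-expanded day 7 for Krtap12-1 (0.902 and 0.924), at 3.18 and 3.40, and non-expanded day 7 for Krtap26-1 (0.892), at 4.47.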

How the results depend on the processing

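The 0 of 44 members past the adjusted threshold for expansion stayed 0 under every filter, scaling, probe set rule, left-out day and fit without the block. The fit without a replicate block, which ignores the day, also gave 0 calls and a median of 1.24, and the trend fit with the block a median of -1.99. Of the 29 named members tested, 27 changed sign without replicate 2, the pair of day 7 arrays; leaving out days in turn gave these lowest and highest estimates: Krtap1-3 -0.22 to 2.06, Krtap1-5 -0.56 to 4.64, Krtap3-1 -0.47 to 2.22, Krtap3-2 -0.14 to 1.87, Krtap4-16 -0.33 to 3.88, Krtap4-8 -0.35 to 2.02, Krtap5-2 -0.39 to 0.77, Krtap6-1 -1.44 to 2.42, Krtap6-5 -2.17 to 4.18, Krtap7-1 -1.58 to 4.59, Krtap8-1 -1.39 to 2.96, Krtap9-1 -1.03 to 2.65, Krtap9-3 -0.76 to 3.45, Krtap10-4 -0.28 to 1.41, Krtap11-1 -0.49 to 3.81, Krtap14 -0.38 to 2.27, Krtap15 -1.07 to 2.20, Krtap16-3 -1.34 to 1.76, Krtap17-1 -0.038 to 0.75, Krtap19-3 -0.54 to 2.37, Krtap19-9b -1.09 to 2.89, Krtap21-1 -0.71 to 1.97, Krtap22-2 -1.65 to 6.02, Krtap24-1 -0.27 to 1.77, Krtap26-1 -0.29 to 1.26, Krtap27-1 -0.057 to 1.32, Krtap31-1 -0.19 to 1.52. The other named members kept their sign under all alternatives run. Leaving out days moved the trend median from -9.51 to -0.009. Leaving out 1 array moved the count for non-expanded against unoperated skin from 0 to 40 and its median from -10.46 to -0.99, and for expanded skin from 0 to 29 and from -9.43 to -0.086. Those extremes come without telogen or without anagen; without the expanded day 7 array the count for expanded skin was 1. At a 4-fold mark the day 0 counts were 0 higher and 0 lower, day 14 had 18 lower and day 21 had 2 higher. With values under the background median set to it, an alternative chosen after seeing the data, day 0 had 0 higher and 1 lower and day 21 had 1 higher. The lack of a second array at any day or stage, and the floor of signal near 5.46, limit every comparison here.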
